A study of Rattus norvegicus with 45 samples.

Results

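Striatum and hippocampus of 5 vehicle-treated rats were compared, as 10 of the 45 arrays of the series. The arrays were chosen by their labels alone: striatum of vehicle rats 1 to 5 and hippocampus of the same rats, which carry animal numbers 32 to 36. All were male Sprague-Dawley rats that carried a subcutaneous osmotic minipump, implanted at 9 to 11 weeks of age, which delivered only the vehicle for 21 days. None of the 10 samples came from a rat without a pump. The other arrays hold frontal cortex of these rats and the same 3 regions of 5 haloperidol and 5 risperidone rats. Those rats were of the same sex, strain and implant age. They received their drug at a fixed daily dose, also by subcutaneous minipump, for the same 21 days. RNA of each dissected region was hybridized to an Affymetrix rat array, so each value is the average over all cells of the piece of tissue, and fewer cells of a type and less RNA per cell cannot be told apart.

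The striatum is built mainly of GABAergic projection neurons that receive dopamine. Those of the direct pathway carry the D1 dopamine receptor and make substance P and dynorphin, and those of the indirect pathway carry the D2 dopamine receptor and an adenosine receptor and make enkephalin. The hippocampus is built mainly of glutamatergic neurons, the granule cells of the dentate gyrus and the pyramidal cells of the CA fields, with a smaller population of GABAergic interneurons.

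The levels below are log2 intensities after the 10 arrays were brought to a common distribution by quantile normalization, and a difference is striatum minus hippocampus of the same rat. As deposited, the median intensity of an array was 89.0 to 91.3 in striatum and 108.3 to 110.4 in hippocampus, and the median probe set lay 0.30 log2 lower in striatum. Whether this offset is biological or comes from processing cannot be told apart here, so differences of about this size depend on the scale used. Precision is limited by how many arrays there were. Arrays of the same region correlated at 0.983 to 0.994 in striatum and 0.989 to 0.994 in hippocampus, against 0.886 to 0.899 between regions. Both tissues carried the defining markers of their labels, and no array stood with the other region. Some striatum arrays also had higher levels of choroid plexus genes (rats 1 and 4) or of several, but not all, genes of glutamatergic neurons (rats 2 and 4). The values are given beside the results they touch.

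Many genes differed between the regions. By limma with the rat as a block, 2365 genes were called higher and 2160 lower in striatum among 10209 tested (23.2% and 21.2%, or 44.3% in all), where a call asks for an adjusted p below 0.05 and a 1.2-fold difference or more. At 2-fold or more, 389 genes (3.81%) were higher and 460 (4.51%) lower (8.32% in all), with 112 and 141 past 4-fold and 22 and 18 past 16-fold. In 836 of the 849 genes called at 2-fold, the 5 striatum levels did not overlap the 5 hippocampus levels, where 50.8% of all genes tested showed no overlap. Counted over all 18625 probe sets tested, 4407 (23.7%) were higher and 4301 (23.1%) lower, or 46.8% in all, with 759 (4.08%) and 896 (4.81%) at 2-fold, or 8.89%, and 49.4% without overlap. On the scale as deposited, 861 genes were higher and 5496 lower at 1.2-fold. All later counts use 1.2-fold unless 2-fold is named, and the median difference over all genes, against which a list can be read, was 0.02.

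Receptors and peptides of the projection neurons were among the genes highest in striatum over hippocampus. Adora2a, the adenosine receptor of the indirect pathway, had log2 levels of 11.45, 11.56, 11.57, 11.71 and 11.64 in striatum of rats 1 to 5, against 5.17, 5.38, 5.29, 5.14 and 5.15 in hippocampus. Every striatum level stood far above every hippocampus level, and the difference of 6.36 (SE 0.06, adjusted p = 6.42e-10 by limma, n = 5 rats) was the largest fitted for any gene called higher. Drd2, the D2 dopamine receptor, read 10.80, 10.98, 11.04, 11.15 and 11.07 in striatum and 4.96, 4.84, 4.92, 4.94 and 5.01 in hippocampus, a difference of 6.07 (SE 0.06, adjusted p = 5.96e-10 by limma). The precursor of the enkephalins, Penk, read 13.55, 13.63, 13.69, 13.71 and 13.68 in striatum, against 8.86, 8.54, 8.42, 8.81 and 8.40 in hippocampus (difference 5.05, SE 0.09, adjusted p = 7.21e-09 by limma). With the orphan receptor Gpr6 at 4.14, all 4 tested members of the indirect-pathway list were higher, at a median difference of 5.56. For Adora2a and Drd2, as for many of the leading genes in either direction, the region with less signal lay below 5.92, the lowest mean level that passed the filter on low values. No detection calls were used, so such levels may be background, and the exact size and order of these differences are uncertain.

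**Figure D1:**
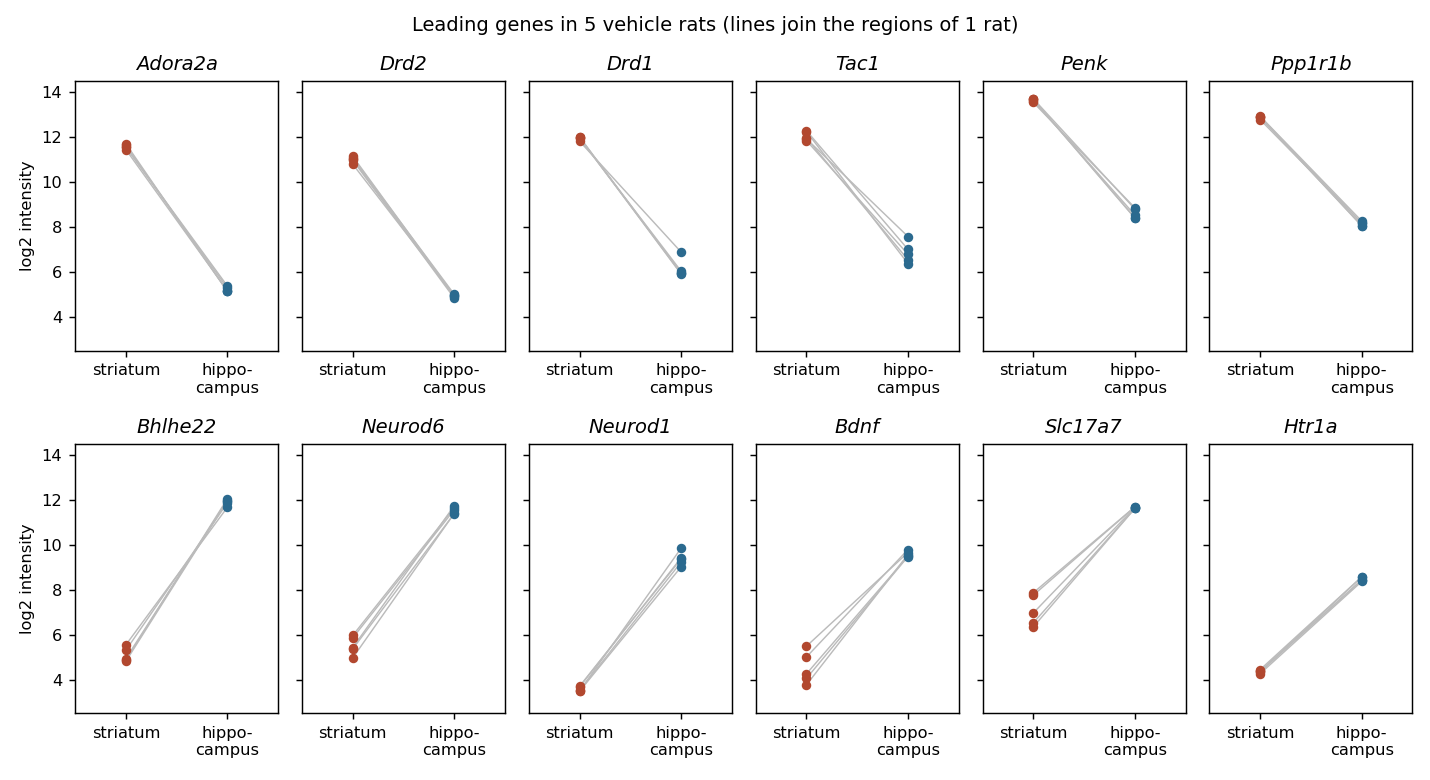
Log2 intensity (vertical axis) of 12 genes in striatum (red, left) and hippocampus (blue, right) of the 5 vehicle rats, with a line joining the regions of each rat. The upper genes are higher in striatum in every rat (Adora2a by 6.36 on average) and the lower genes lower in striatum in every rat (Bhlhe22 by -6.81), and the striatum levels of Slc17a7 and Bdnf spread more than their hippocampus levels.

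Direct-pathway markers were higher too, with a wider spread in hippocampus. Drd1, the D1 dopamine receptor, had levels of 11.82 to 12.01 in striatum and of 6.89, 5.94, 5.96, 5.91 and 6.04 in hippocampus. Hippocampus of rat 1 stood apart from the other 4 hippocampi, and the difference was 5.80 (SE 0.16, adjusted p = 5.42e-08 by limma). In the same hippocampus the markers of neocortical layers averaged 8.26, where the other 4 hippocampi had 7.69 to 7.97. The same markers averaged 8.50 to 8.60 in the striata, above every hippocampus. With frontal cortex of these rats normalized alongside, Drd1 averaged 6.83 ± 0.50 there and reached at most 6.85 in hippocampus. The part of neocortical tissue in the Drd1 level was not tested. Tac1, which encodes substance P, read 11.93, 11.85, 12.25, 12.29 and 11.96 in striatum, against 7.58, 6.79, 6.38, 7.01 and 6.55 in hippocampus (difference 5.19, SE 0.18, adjusted p = 1.47e-07 by limma). Pdyn, the dynorphin precursor, differed far less, by 1.21 (SE 0.18, adjusted p = 5.22e-04 by limma), with 11.45, 11.13, 11.28, 11.56 and 11.43 in striatum and 9.57, 10.15, 9.59, 10.68 and 10.81 in hippocampus. Of the 8 tested markers of the direct pathway, 6 were higher and 2 lower, namely Sfxn1 (-0.52), a mitochondrial serine carrier, and Eya1 (-0.91), a transcriptional coactivator and phosphatase.

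Signaling proteins that act downstream of these receptors were higher throughout. All 19 tested genes of cAMP and DARPP-32 signaling were higher in striatum, 18 of them at 2-fold or more, at a median difference of 2.82 that lay between 2.44 and 3.06 in single rats. Rgs9, which ends signaling by G proteins, had levels of 11.89, 12.07, 11.97, 12.08 and 12.10 in striatum and 6.98, 7.09, 7.05, 7.16 and 7.02 in hippocampus (difference 4.96, SE 0.04, adjusted p = 4.65e-10 by limma). Ppp1r1b, which encodes DARPP-32, the phosphatase inhibitor that integrates dopamine and glutamate signals, read 12.78, 12.89, 12.91, 12.91 and 12.93 in striatum, against 8.18, 8.07, 8.18, 8.05 and 8.27 in hippocampus (difference 4.74, SE 0.05, adjusted p = 7.03e-10 by limma). The cAMP route itself was represented at each step: the olfactory-type G protein alpha subunit Gnal was higher by 2.82, its partner Gng7 by 2.97, the adenylyl cyclase Adcy5 by 3.36, and the phosphodiesterases Pde10a by 3.24, Pde1b by 3.22 and Pde7b by 2.31. The smallest difference of the group was that of Prkcd, a protein kinase C, at 0.43 (SE 0.16, adjusted p = 0.0464 by limma). That call was lost on the deposited scale (0.13, adjusted p = 0.462), with no filter on low values (0.43, adjusted p = 0.0550) and without rat 2, 3 or 4 (0.22 to 0.45, adjusted p from 0.0467, where the fold fell short, to 0.100).

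Transcription factors of striatal neurons were likewise higher, 11 of 12 tested, at a median difference of 2.74. Foxp2 was higher by 4.95 (SE 0.19, adjusted p = 2.49e-07 by limma), with 9.69, 9.81, 9.91, 9.66 and 9.82 in striatum and 5.68, 4.37, 4.54, 4.52 and 5.01 in hippocampus. The retinoid receptor Rarb (4.53), Meis1 (3.60), the retinoid receptor Rxrg (3.54), Meis2 (3.30), Ebf1 (2.89), Dlx5 (2.59) and Foxp1 (2.30) followed. Bcl11b, which is also known for a role in other neurons of the forebrain, was higher by only 0.74 (SE 0.06, adjusted p = 1.32e-05 by limma), from 11.63 to 11.87 in striatum and from 10.74 to 11.16 in hippocampus. Dlx1, an interneuron factor, was the member not called (-0.14). Dach1, a developmental transcription factor outside the list, read 10.16, 10.29, 10.36, 10.19 and 10.35 in striatum and 4.68, 4.74, 4.80, 4.64 and 4.92 in hippocampus, a difference of 5.51 (SE 0.04, adjusted p = 3.75e-10 by limma).

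Retinoid signaling, in which vitamin A derivatives act through nuclear receptors, differed step by step. The receptors Rarb and Rxrg, which stand on the list of striatal transcription factors too, were higher by 4.53 (SE 0.06, adjusted p = 3.47e-09) and 3.54 (SE 0.15, adjusted p = 4.89e-07 by limma). Rarb levels were 10.91, 11.21, 10.94, 10.87 and 10.98 in striatum and 6.50, 6.64, 6.14, 6.49 and 6.49 in hippocampus. Binding and transport proteins were higher as well, with Crabp1 at 2.94, Rbp4 at 2.52 and Crabp2 at 1.68. Among the enzymes, Rdh10, which oxidizes retinol, was higher by 1.33, while Aldh1a1, which makes retinoic acid, had a difference of -1.77, and Cyp26b1, which degrades retinoic acid, had a difference of -2.60. In all, 9 of 14 tested members were higher and 2 lower, at a median of 0.55.

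Further genes with large positive differences came from several protein classes, and among them Slc35d3 is counted on the direct-pathway list and Rasgrp2 on the cAMP and DARPP-32 list above. Slc22a3, a transporter of monoamines and organic cations, differed by 5.14, Nexn, an actin-binding protein, by 5.04, Coch, an extracellular matrix protein known from the inner ear, by 4.92, Slc35d3, a nucleotide sugar transporter-like protein, by 4.85, Rasgrp2, an exchange factor for Rap proteins, by 4.82, and Scn4b, a beta subunit of sodium channels, by 4.58. All 6 were chosen for the size of their difference among genes called at 2-fold, so being called followed from the choice (adjusted p at or below 1.91e-07 by limma). The striatum and hippocampus levels of each did not overlap, as in 836 of the 849 genes called at 2-fold.

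Genes of GABA synthesis and vesicle loading were higher in striatum. Slc32a1, the vesicular GABA transporter, had levels of 9.90, 9.94, 10.07, 10.07 and 10.03 in striatum and 7.99, 7.86, 8.08, 8.02 and 7.94 in hippocampus, a difference of 2.03 (SE 0.04, adjusted p = 1.51e-08 by limma). The GABA-synthesizing enzymes Gad2 and Gad1 were higher by 1.52 and 1.15, and Abat, which breaks GABA down, by 0.91, so that all 4 tested members were higher. With no filter on low values, 4 of 5 members of this list were called higher and 1 lower. Slc5a7, the choline transporter of cholinergic neurons, was higher by 4.29 (SE 0.17, adjusted p = 2.83e-07 by limma), with 9.03, 9.12, 9.15, 9.33 and 9.52 in striatum and 5.55, 4.90, 4.86, 4.57 and 4.84 in hippocampus. Tacr1, the substance P receptor, was higher by 0.66. Chat, which makes acetylcholine, did not pass the filter on low values and differed by 2.82 without that filter.

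Interneuron markers went both ways, with 3 of 10 higher, 6 lower and 1 not called. Vip, the vasoactive intestinal peptide, read 4.59, 5.22, 4.51, 4.93 and 4.52 in striatum, against 9.10, 8.30, 8.18, 8.62 and 8.56 in hippocampus (difference -3.80, SE 0.17, adjusted p = 6.11e-07 by limma). Cck, cholecystokinin, which pyramidal cells also make, read 8.04, 9.48, 7.90, 9.63 and 8.53 in striatum and 12.37, 11.94, 11.75, 12.06 and 11.93 in hippocampus (-3.29, SE 0.27, adjusted p = 1.88e-05 by limma). For both genes, striatum of rats 2 and 4 had the highest striatum levels. The calcium-binding protein Pvalb was lower, with a difference of -1.69 (SE 0.17, adjusted p = 6.07e-05 by limma) and a low striatum level in rat 2 (6.83, against 7.48 to 8.46 in the other striata). Npy, neuropeptide Y, was higher by 0.82, and Htr3a, an ionotropic serotonin receptor, by 1.15. Somatostatin, Sst, overlapped between regions, from 10.10 to 10.48 in striatum and from 9.80 to 10.61 in hippocampus, and its difference of 0.08 (SE 0.08) was not called.

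Transcription factors of glutamatergic neurons were among the genes lowest in striatum relative to hippocampus. Bhlhe22 had levels of 5.55, 4.87, 4.94, 4.82 and 5.31 in striatum and 11.67, 12.05, 11.97, 11.96 and 11.87 in hippocampus. Its difference of -6.81 (SE 0.15, adjusted p = 1.83e-08 by limma) was the largest in size fitted for any gene called, against a striatum level that may be background. Neurod6 read 4.97, 5.86, 5.43, 5.97 and 5.37 in striatum, against 11.40, 11.56, 11.74, 11.65 and 11.39 in hippocampus (-6.03, SE 0.12, adjusted p = 9.51e-09 by limma), and Neurod1 was at 3.49 to 3.71 in striatum and at 9.02 to 9.85 in hippocampus (-5.80, SE 0.11, adjusted p = 8.82e-09 by limma). Genes of other classes had differences of like size, namely the potassium channel Kcnj6 (-5.82), the secreted protein Tafa1 (-5.36), the adrenergic receptor Adra1d (-5.27) and the neurotrophin Bdnf (-5.08). Of 16 tested members of the list of telencephalic glutamatergic neurons, 14 were lower and 2 not called, at a median of -1.63. The members not called were Nrgn (-0.09) and Camk2b (-0.20), which encode a calmodulin-binding protein and a subunit of a calcium-dependent kinase.

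The promoters of a gene from each end of the ranking are shown because the cAMP pathway described above and the NeuroD factors act through known DNA motifs, the cAMP response element and the E-box. RefSeq (GRCr8) gives the 250 bases before the start of Tac1 as chr4:36645333-36645582, plus strand, and those of Neurod6 as chr4:86180156-86180405, minus strand. The start is that of the transcript in the promoter table, and since RefSeq begins the gene Tac1 at 36645344 on chromosome 4, nearly all of its window lies inside the gene as annotated. Of 159 genes named by rule, 115 have a promoter in the table used. Capitals mark the core of the cAMP response element, TGACG, the full palindrome TGACGTCA, which contains it on both strands, and the E-box CAGATG, each searched on both strands.
Tac1: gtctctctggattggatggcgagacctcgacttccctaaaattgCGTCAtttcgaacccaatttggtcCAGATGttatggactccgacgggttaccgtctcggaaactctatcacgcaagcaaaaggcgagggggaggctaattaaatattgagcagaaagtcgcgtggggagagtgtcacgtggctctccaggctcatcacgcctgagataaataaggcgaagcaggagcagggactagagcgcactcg
Neurod6: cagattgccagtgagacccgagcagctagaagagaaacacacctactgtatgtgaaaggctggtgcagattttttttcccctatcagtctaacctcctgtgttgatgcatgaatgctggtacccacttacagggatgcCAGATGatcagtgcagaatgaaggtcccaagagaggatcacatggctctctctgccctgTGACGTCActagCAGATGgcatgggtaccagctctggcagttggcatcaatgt
Tac1 holds 1 core and 1 E-box, and Neurod6 holds 1 full palindrome and 2 E-boxes. Among all 33469 promoters of this length, 18.2% hold the core, 1.59% the palindrome and 14% the E-box. The shares were 20.7%, 1.59% and 10.8% of the 314 matched genes called higher in striatum at 2-fold, and 22.5%, 2.05% and 9.65% of the 342 matched genes called lower. Both windows were picked after the matches had been seen, and a match is a description of the letters only.

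Vesicular glutamate transporters followed the same direction as the transcription factors. Slc17a7, the main vesicular glutamate transporter of the cortex and hippocampus, was even in hippocampus, with 11.62, 11.69, 11.62, 11.69 and 11.66, and uneven in striatum, with 6.35, 7.76, 6.53, 7.87 and 6.97. Striatum of rats 2 and 4 was the highest, and the difference was -4.56 (SE 0.22, adjusted p = 7.54e-07 by limma). Over the 16 genes of glutamatergic neurons, the mean level of an array was 7.89, 8.22, 7.92, 8.20 and 8.12 in striatum of rats 1 to 5, against 10.39, 10.59, 10.62, 10.54 and 10.56 in hippocampus. Not every member followed this order: Bhlhe22 was lowest in striatum of rats 2 and 4 (4.87 and 4.82), at levels that may be background. Without rats 2 and 4, 738 probe sets were called higher and 911 lower at 2-fold, against 759 and 896 with all rats, and the part of neighboring cortical tissue in these striatum levels was not tested. Slc17a6, the transporter more typical of subcortical neurons, was lower as well (-2.68, SE 0.15, adjusted p = 1.70e-06 by limma). Its striatum level was highest in rat 4 (5.86), while rat 2 (5.22) lay among the others.

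Markers of the CA fields were mostly lower in striatum, and those of the dentate gyrus were mixed. Of 7 tested CA1 markers 6 were lower (median -1.59), and of 8 CA2 and CA3 markers 7 (median -2.41). Of 6 tested dentate markers 3 were lower, 1 was higher and 2 were not called (median -1.42). With no filter on low values, the dentate median was -0.40 over 8 markers. Fibcd1, a transmembrane receptor used as a marker of CA1, read 5.72, 5.70, 5.90, 6.17 and 5.57 in striatum and 8.47, 8.83, 8.76, 8.79 and 8.69 in hippocampus (-2.90, SE 0.08, adjusted p = 5.49e-08 by limma). The homeobox factor Prox1, which defines dentate granule cells, read 6.54, 6.57, 6.87, 6.67 and 6.76 in striatum, against 8.88, 9.51, 9.42, 9.24 and 9.32 in hippocampus (-2.60, SE 0.08, adjusted p = 7.68e-08 by limma). Cpne4, a calcium-dependent membrane-binding protein, had a difference of -4.41 and C1ql3, a secreted synaptic protein, one of -4.76. Calb1, a calcium-binding protein that granule cells and striatal projection neurons both make, was the dentate marker that was higher (1.04). The defining dentate marker Dsp and the CA2 and CA3 markers Iyd and Ccl19 were too dim to pass the filter on low values.

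Among 5 tested neurotrophin genes, 2 were lower and 3 not called, a share called slightly below the 44.3% of all genes tested. Bdnf had levels of 4.06, 5.49, 3.77, 5.01 and 4.26 in striatum and 9.48, 9.66, 9.57, 9.79 and 9.50 in hippocampus, a difference of -5.08 (SE 0.21, adjusted p = 3.21e-07 by limma). Rats 2 and 4 again had the highest striatum levels. Ntf3, neurotrophin 3, was lower too (-3.40, SE 0.12, adjusted p = 1.69e-07 by limma). The receptors of both factors were not called: Ntrk2 differed by -0.18 and Ntrk3 by -0.23, below the 1.2-fold limit. The probe sets of Ntrk2 ranged from -0.34 to 0.14, and the deposited scale called it lower (-0.52, adjusted p = 1.16e-05 by limma). The signaling ligand Wnt4 read 4.24, 4.44, 4.20, 4.63 and 4.38 in striatum and 8.96, 9.27, 9.06, 9.27 and 9.29 in hippocampus (-4.80, SE 0.05, adjusted p = 7.01e-10 by limma), and Nrn1, a plasticity-related surface protein, differed by -4.46.

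Nuclear receptors for hormones were called in opposite directions, but the calls of higher genes depended on the scale. The mineralocorticoid receptor Nr3c2 had 8.26, 8.29, 8.35, 8.75 and 8.21 in striatum and 10.04, 10.31, 10.32, 10.27 and 10.11 in hippocampus (-1.84, SE 0.07, adjusted p = 2.95e-07 by limma). Hsd11b1, the enzyme that regenerates active glucocorticoid inside cells, was lower too (-1.24, SE 0.06, adjusted p = 8.87e-07 by limma). The glucocorticoid receptor Nr3c1 was called higher by 0.40 (SE 0.07, adjusted p = 9.96e-04 by limma) on its brightest probe set, while its probe sets ranged from -0.05 to 0.40, and the deposited scale gave 0.05 (adjusted p = 0.542). Of 7 tested members, 2 were higher and 3 lower. The other higher member was Thrb, a thyroid hormone receptor (0.41, SE 0.10, adjusted p = 0.00749 by limma). Its call was lost on the deposited scale (0.06, adjusted p = 0.611) and without rats 2 and 4 (0.33, adjusted p = 0.0912 by limma).

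**Figure D2:**
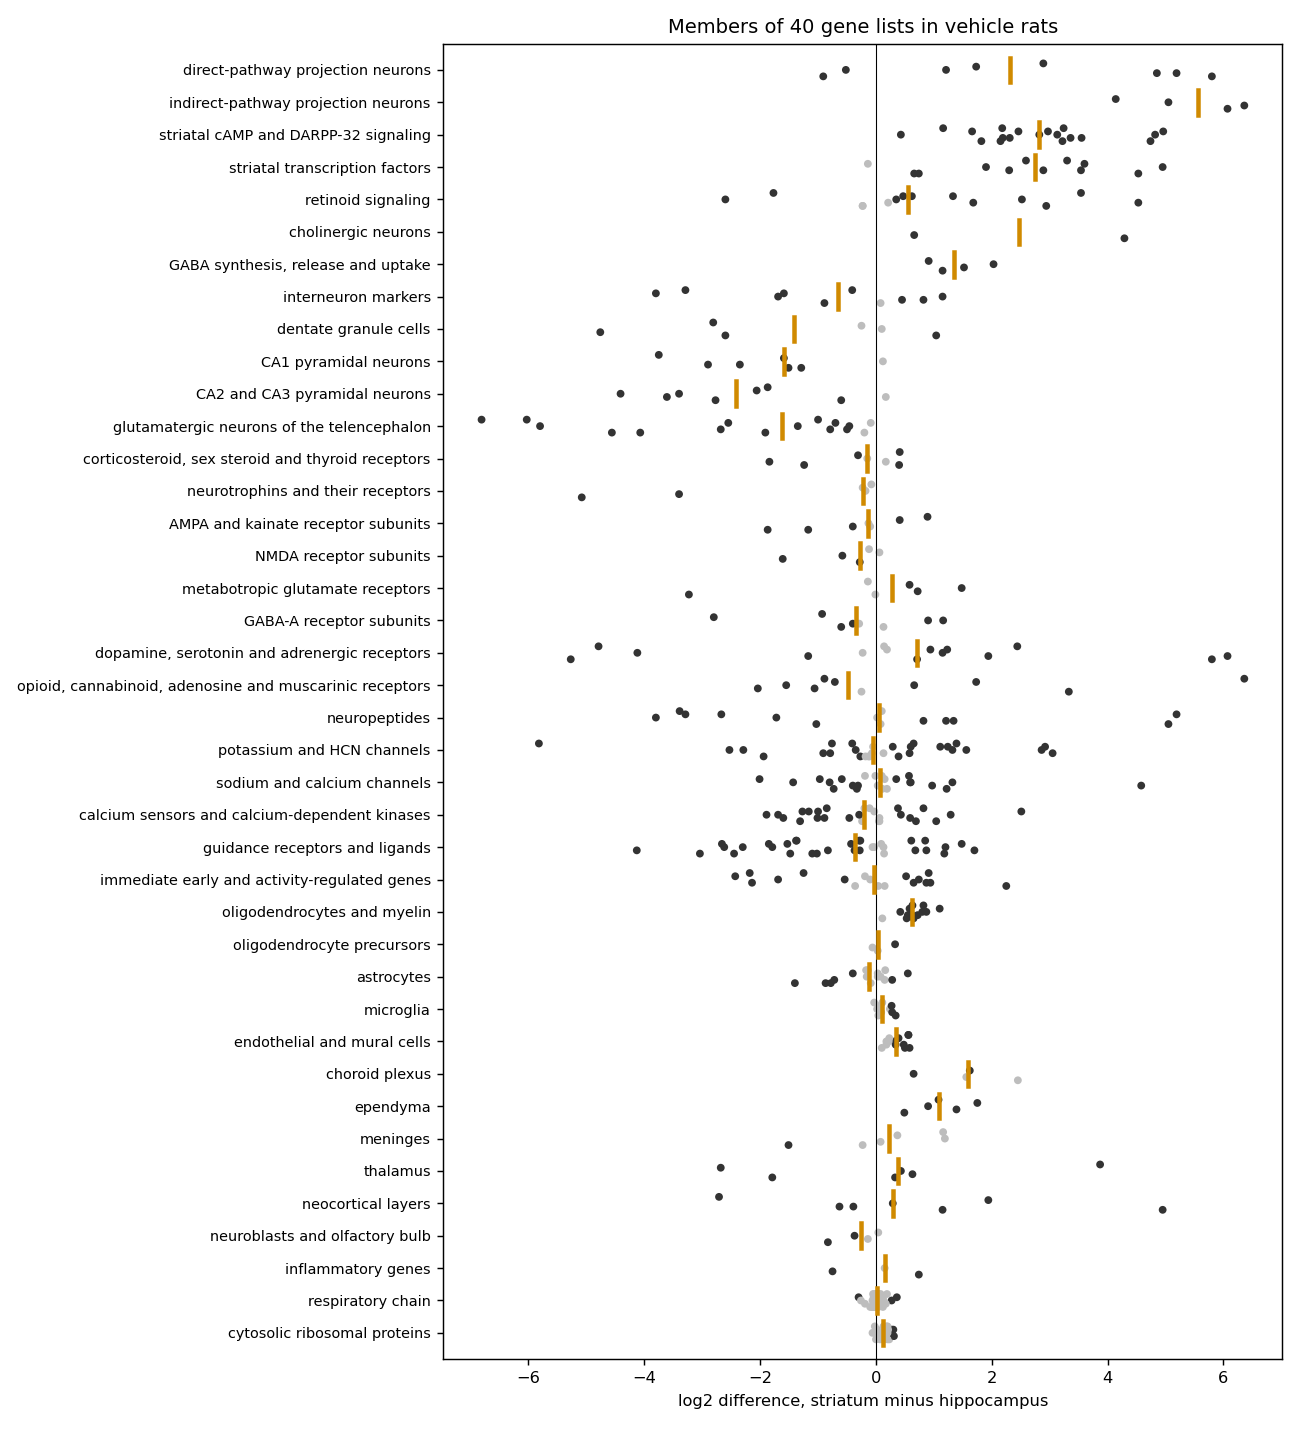
Log2 difference, striatum minus hippocampus (horizontal axis), of each tested member of 40 gene lists (1 row each). Points are genes, black where called at 1.2-fold and gray where not, and the orange bar is the median of the list. Lists of striatal neurons lie to the right (median 5.56 for the indirect pathway), those of glutamatergic and hippocampal neurons to the left (-2.41 for CA2 and CA3), and respiratory chain and ribosomal genes close to 0 (0.02 and 0.13).

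Receptors for dopamine, serotonin and noradrenaline divided the regions by subtype, with 8 of 15 tested genes higher and 4 lower in striatum. After Drd2 and Drd1, the largest positive differences were those of the serotonin receptors Htr1d (2.44) and Htr2c (1.94). The serotonin receptor Htr1a stood at the other end, with 4.27, 4.37, 4.37, 4.45 and 4.35 in striatum and 8.37, 8.57, 8.43, 8.58 and 8.45 in hippocampus (-4.12, SE 0.04, adjusted p = 5.96e-10 by limma). Htr5b, another serotonin receptor, read 3.55, 3.55, 3.60, 3.62 and 3.75 in striatum, against 8.23, 8.31, 8.55, 8.61 and 8.33 in hippocampus (-4.79, SE 0.07, adjusted p = 3.10e-09 by limma), and the alpha-1 adrenergic receptor Adra1d was at 4.14 to 4.49 and 9.43 to 9.72 (-5.27, SE 0.06, adjusted p = 1.43e-09 by limma). Htr2a, a serotonin receptor that risperidone blocks, was called higher by 0.71 (SE 0.22, adjusted p = 0.0184 by limma), but its difference was 1.87 in rat 3 and 0.22 to 0.51 in the other 4 rats. The striatum and hippocampus levels of Htr2a overlapped, and the call was lost on the deposited scale (0.45, adjusted p = 0.0793) and without rats 2 and 4 (0.86, adjusted p = 0.0683 by limma). The dopamine receptors Drd3, Drd4 and Drd5 did not pass the filter on low values. With no such filter, 10 of 26 members of this list were called higher and 7 lower. The list median was then 0.05, against 0.71 over the 15 tested.

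**Figure D3:**
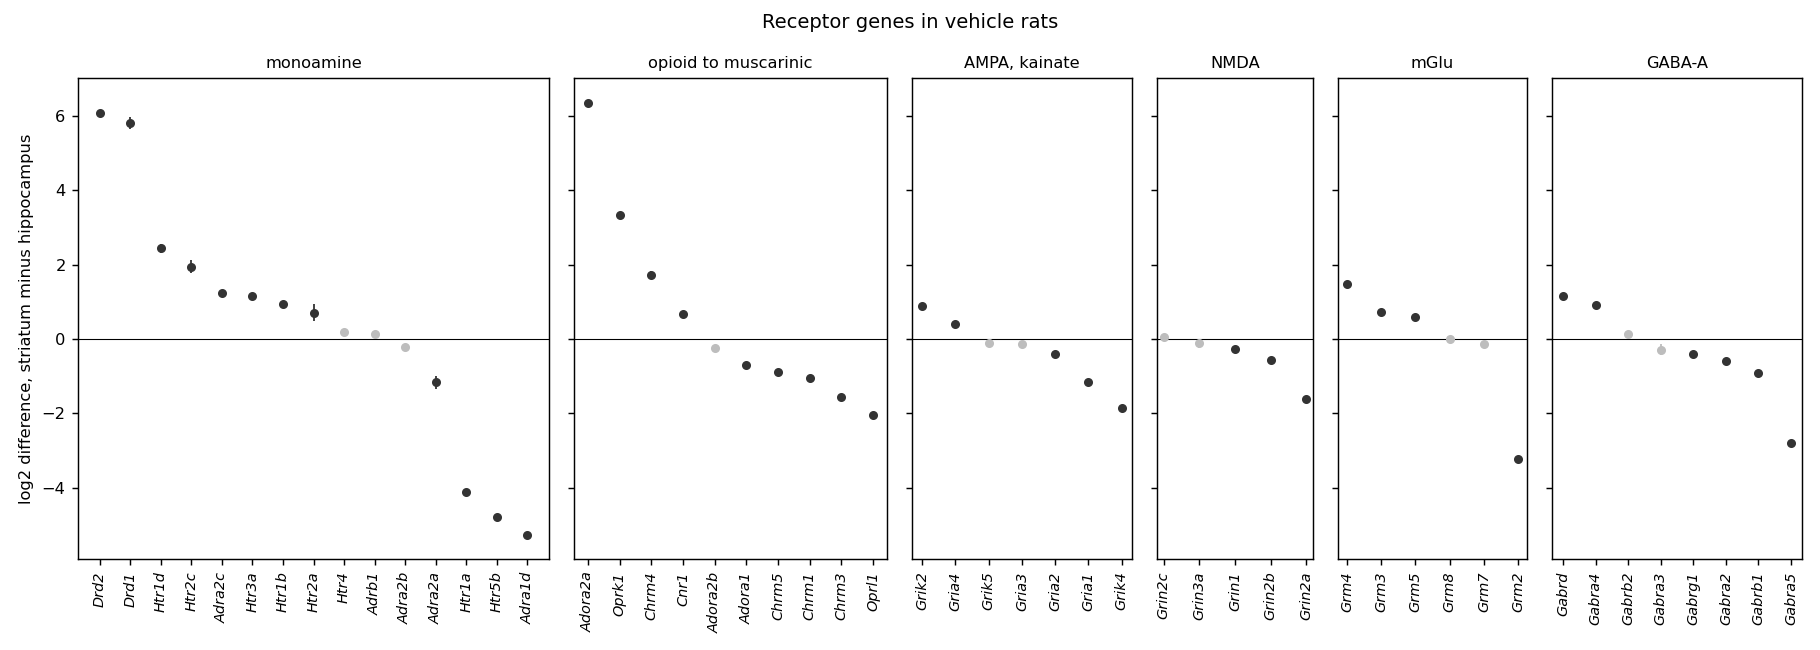
Log2 difference, striatum minus hippocampus (vertical axis), of tested receptor genes in 6 families, ordered by size within each family. Points are the fitted difference over 5 vehicle rats, bars its standard error, black where called at 1.2-fold and gray where not. Each family holds members on both sides of 0, from 6.36 for Adora2a to -5.27 for Adra1d.

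Opioid, cannabinoid, adenosine and muscarinic receptors showed the same division, 4 higher and 5 lower of 10. Oprk1, the kappa opioid receptor to which dynorphin binds, read 7.63, 7.90, 7.49, 7.56 and 7.83 in striatum and 4.26, 4.51, 4.09, 4.34 and 4.58 in hippocampus (difference 3.33, SE 0.05, adjusted p = 2.91e-09 by limma). Oprl1, the nociceptin receptor, had a difference of -2.04, and Pnoc, the precursor of its ligand, one of -1.72. Of the muscarinic receptors, Chrm4, which couples to inhibitory G proteins, was higher by 1.73, while Chrm1 (-1.06), Chrm3 (-1.55) and Chrm5 (-0.89), which couple to phospholipase C, were lower. The adenosine A1 receptor Adora1 was lower (-0.71), in contrast to Adora2a. The cannabinoid receptor Cnr1 was higher by 0.66, with 11.75, 11.84, 12.32, 12.31 and 12.16 in striatum and 11.37, 11.42, 11.43, 11.51 and 11.33 in hippocampus (SE 0.09, adjusted p = 2.63e-04 by limma).

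Ionotropic glutamate receptors differed by subunit. Grin2a, an NMDA receptor subunit, had a difference of -1.61 (SE 0.05, adjusted p = 9.69e-08 by limma), with 8.84 to 9.23 in striatum and 10.39 to 10.83 in hippocampus, although its probe sets ranged from -2.46 to 0.05. Grin2b was lower by less (-0.58, SE 0.05) and Grin1, the obligatory subunit, by less again (-0.28, SE 0.04), and both had a probe set that was not called. Without rat 1 the call of Grin1 was lost (-0.25). The AMPA receptor subunit Gria1 was lower (-1.17, SE 0.06, adjusted p = 9.18e-07 by limma) and Gria2 was lower (-0.40), whereas Gria4 was higher (0.41). The kainate receptor subunits Grik2 and Grik4 differed in opposite directions, at 0.89 and -1.87. In all, 2 of 7 AMPA and kainate genes were higher and 3 lower, and of 5 NMDA genes none was higher and 3 were lower.

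Metabotropic glutamate receptors and GABA-A receptors were divided as well. Grm2, a presynaptic receptor, read 4.45, 4.88, 4.69, 4.80 and 5.07 in striatum, against 7.24, 8.23, 8.19, 8.06 and 8.34 in hippocampus (-3.23, SE 0.09, adjusted p = 6.34e-08 by limma). Grm4 (1.48), Grm3 (0.72) and Grm5 (0.58) were higher. Grm5 levels overlapped between regions, from 9.72 to 10.54 in striatum and from 9.11 to 9.99 in hippocampus, with striatum higher in each rat, and on the deposited scale its difference of 0.23 fell short of 1.2-fold. Gabra5, a GABA-A subunit known for its place outside synapses of hippocampal pyramidal cells, had 8.42, 8.38, 8.36, 8.50 and 8.20 in striatum and 11.11, 11.22, 11.22, 11.28 and 11.05 in hippocampus (-2.80, SE 0.04, adjusted p = 4.39e-09 by limma). Gabrd, the delta subunit, which is also extrasynaptic, was higher by 1.16 (SE 0.05, adjusted p = 4.55e-07 by limma), and Gabra4 by 0.90. Of 8 tested GABA-A subunits, 2 were higher and 4 lower. The median of the metabotropic list was 0.28 here and -0.04 on the deposited scale.

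Among 14 tested neuropeptide genes, 5 were higher and 6 lower. Besides Tac1, Penk, Pdyn and Npy, Cartpt, which encodes the CART peptide, was higher by 1.34. Besides Vip, Cck and Pnoc, those lower were Adcyap1 (PACAP, -3.39), Grp (gastrin-releasing peptide, -2.67) and Nts (neurotensin, -1.03).

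Ion channels held large differences in both directions at list medians near 0. Of 29 potassium and HCN channel genes, 13 were higher and 10 lower. Kcnj6, a G protein-gated inward rectifier, read 4.40, 4.80, 4.20, 4.68 and 4.46 in striatum and 10.13, 10.40, 10.53, 10.29 and 10.29 in hippocampus (-5.82, SE 0.10, adjusted p = 7.73e-09 by limma). Its family members Kcnj3 (-2.53) and Kcnj9 (-1.94), which assemble with it, were lower too, and Kcnj4, a strong inward rectifier, was higher (1.24). The leak channel Kcnk2 was higher by 3.05 on its brightest probe set and by 0.28 on the other, the voltage-gated Kcna5 by 2.92 and Kcna4 by 1.56, and the sodium-activated Kcnt1 by 2.86. Of 24 sodium and calcium channel genes, 8 were higher and 9 lower, led by Scn4b (4.58) and by the AMPA receptor-associated subunit Cacng8 (-2.01) and the T-type channel Cacna1g (-1.43).

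Calcium sensors and kinases were lower more often than higher, 12 against 8 of 27, and the largest difference was a positive one. Pcp4, a regulator of calmodulin, read 13.42, 13.60, 13.65, 13.67 and 13.63 in striatum and 11.28, 11.09, 10.95, 10.99 and 11.11 in hippocampus (2.51, SE 0.08, adjusted p = 1.03e-07 by limma). Camk4 (1.29) and the inositol trisphosphate receptor Itpr1 (0.69) were higher. The neuronal calcium sensor Vsnl1 (-1.89), its relative Ncald (-1.60) and the kinase subunit Camk2g (-1.01) were lower.

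Guidance molecules, which steer growing axons and shape synapses, were lower in 20 of 33 tested genes and higher in 8, at a median of -0.37. The neuropilins, which are semaphorin receptors, led: Nrp2 read 5.34, 5.45, 5.28, 5.42 and 5.33 in striatum, against 9.26, 9.69, 9.47, 9.49 and 9.57 in hippocampus (-4.13, SE 0.06, adjusted p = 3.10e-09 by limma), and Nrp1 differed by -3.04. The netrin receptor Unc5a (-2.66), the repellents Slit1 (-2.62) and Slit2 (-1.85), the semaphorin Sema3c (-2.45) and the ephrin receptors Epha5 (-2.30), Epha6 (-1.53) and Epha7 (-1.37) were lower. Netrin 1 itself, Ntn1, was higher (1.70), as were the ligand Efna5 (1.48) and the receptor Ephb1 (1.18).

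Immediate early genes, which neuronal activity induces, went both ways. Egr2 was higher by 2.25 (SE 0.21, adjusted p = 3.57e-05 by limma), with 8.45, 8.76, 8.87, 8.57 and 9.21 in striatum and 6.92, 6.11, 6.37, 6.96 and 6.26 in hippocampus. Egr4 (0.94) and Egr1 (0.91) were higher too. The orphan nuclear receptors Nr4a2 (-2.43, SE 0.37, adjusted p = 5.61e-04 by limma) and Nr4a3 (-2.18) were lower, their relative Nr4a1 was higher (0.74), and Jun was lower (-2.14). Nr4a2 had 5.64, 7.35, 5.56, 6.73 and 5.33 in striatum, again highest in rats 2 and 4, and 9.05, 8.20, 8.66, 8.34 and 8.50 in hippocampus. Fos overlapped between regions, from 6.65 to 8.05 in striatum and from 7.35 to 8.60 in hippocampus (-0.36, SE 0.20), and neither it nor Arc (0.15) was called, though Fos was without rat 3 (-0.53, adjusted p = 0.0423 by limma) and on the deposited scale (-0.67, adjusted p = 0.0141).

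Genes of oligodendrocytes were moderately higher in striatum, 12 of 13 tested, at a median of 0.63 that ran from 0.53 to 0.79 in single rats. Ugt8, which makes the myelin lipid galactosylceramide, was higher by 1.10 (SE 0.06, adjusted p = 1.22e-06 by limma). The myelin protein Mog read 10.69, 10.75, 11.00, 10.54 and 10.83 in striatum and 9.77, 9.96, 10.48, 9.95 and 10.05 in hippocampus (0.72, SE 0.06, adjusted p = 2.54e-05 by limma). Rat 3 had the highest level in both regions. Mbp, the member not called (0.11), lay at 14.23 on 6 of the 10 arrays, the top of the common distribution. Of its 3 probe sets 2 were called higher, by up to 0.51, and with arrays centered on their median this one was called too (0.27, adjusted p = 4.97e-04 by limma). Of 3 precursor genes, Olig1 was called higher by 0.33, and Pdgfra (0.03) and Cspg4 (-0.06) were not called. The deposited scale gave -0.01 for Olig1, so its direction depends on the scale.

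Astrocyte genes differed singly. Gfap, the intermediate filament of reactive and fibrous astrocytes, had 10.99, 10.98, 10.92, 10.82 and 10.90 in striatum and 12.18, 12.39, 12.47, 12.22 and 12.35 in hippocampus (-1.40, SE 0.06, adjusted p = 3.05e-07 by limma). Agt, angiotensinogen, was lower (-0.87), as were Crym, a thyroid hormone-binding protein (-0.78), the connexin Gjb6 (-0.72) and the glutamate transporter Slc1a2 (-0.40). The water channel Aqp4 (0.15), the glutamate transporter Slc1a3 (-0.17), Aldh1l1 (-0.16) and S100b (0.03) were not called. Over 16 tested genes 2 were higher and 5 lower, at a median of -0.12. The share called, 43.8%, was near the 44.3% of all genes tested. For Slc1a3, 2 of 3 probe sets were called lower (down to -0.28), as was the one given here on the deposited scale (-0.52, adjusted p = 6.16e-06 by limma).

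Microglial and vascular genes differed by small amounts. Of 10 microglial genes, Cx3cr1, the fractalkine receptor, was higher by 0.34 (SE 0.07, adjusted p = 0.00385 by limma), C1qc by 0.28 and Trem2 by 0.27, and the other 7 were not called. The share of microglial genes called was below the 44.3% of all genes tested. The deposited scale turned C1qc to -0.02 and Trem2 to -0.01, and gave 0.03 for Cx3cr1, with none of the 3 called. The call of C1qc was lost without rat 5 (0.25), that of Trem2 without rat 2, 3 or 4 (0.22 to 0.26), and Aif1 (0.24) was called only without rat 1 (0.30). Of 13 endothelial and mural genes 8 were higher, at a median of 0.34 (0.05 on the deposited scale), among them the drug efflux pump Abcb1a (0.58) and the tight junction protein Cldn5 (0.50, and 0.14 with the call lost on the deposited scale), and Pdgfrb (0.23), a receptor of pericytes, was called only without rat 4 (0.29).

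Genes of the choroid plexus, a secretory tissue inside the ventricles, varied by array more than by region. Ttr, transthyretin, had 14.49, 10.84, 7.62, 13.92 and 8.96 in striatum of rats 1 to 5 and 6.85, 8.80, 6.92, 8.79 and 12.20 in hippocampus. Rat 5 was the rat with a lower level in striatum than in hippocampus, and the difference of 2.45 (SE 1.34, adjusted p = 0.140 by limma) was not called with all rats but was without rat 5 (3.88, adjusted p = 0.0152). The folate receptor Folr1 did likewise (1.56 with all rats, 2.05 without rat 5). Over the 4 tested genes the mean level was 11.79, 8.89, 8.05, 10.45 and 8.22 in striatum, against 7.30, 7.89, 7.47, 7.93 and 8.96 in hippocampus. Enpp2 (1.62) and Aqp1 (0.65) were called. The call of Aqp1 was lost without rat 4 (0.56, adjusted p = 0.110), without rats 2 and 4 (0.72, adjusted p = 0.104) and on the deposited scale (0.36, adjusted p = 0.170), and that of Enpp2 without rats 2 and 4 (1.65, adjusted p = 0.0588 by limma). All 5 tested ependymal genes were higher, from 0.49 to 1.75, at a median of 1.08 that ran from 0.53 to 2.07 in single rats, with the highest striatum mean in rat 1 (8.64, against 7.71 to 8.11 in the other striata). The part of choroid plexus tissue in the striatum of rat 1 in these values was not tested.

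Genes of basic metabolism differed little. Of 40 respiratory chain genes, Ndufs4 (0.36) and Ndufs3 (0.27) were called higher and Ndufa5 (-0.30) lower, and the median was 0.02. The call of Ndufs3 was lost without rat 3 (0.26). Cox4i1, a cytochrome oxidase subunit, read 12.99, 12.99, 13.02, 12.98 and 13.00 in striatum, against 13.00, 12.96, 12.99, 12.96 and 12.96 in hippocampus (0.02, SE 0.04). Of 24 cytosolic ribosomal protein genes, 4 were called higher, by 0.27 to 0.31, at a median of 0.13, with Rpl27 lost without rat 3 (0.26). On the deposited scale these medians were -0.30 and -0.16, where the median of all genes was -0.30.

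Frontal cortex of the same 5 rats placed these differences against another cortical region, as a description with all 15 arrays normalized together. For most leading striatal genes, frontal cortex lay nearer to hippocampus: Adora2a averaged 11.57 ± 0.10 in striatum, 5.19 ± 0.11 in hippocampus and 5.65 ± 0.31 in frontal cortex (SD, n = 5 rats). Foxp2 in frontal cortex lay between, at 6.67 ± 0.32, against 9.77 ± 0.10 in striatum and 4.79 ± 0.53 in hippocampus. Pdyn was lowest in frontal cortex, at 8.59 ± 0.25, against 11.35 ± 0.16 and 10.15 ± 0.59 in striatum and hippocampus.

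Genes low in striatum differed in their frontal cortex levels. C1ql3 averaged 6.03 ± 0.46 in striatum, 10.81 ± 0.06 in hippocampus and 10.73 ± 0.12 in frontal cortex, and Slc17a7 averaged 7.06 ± 0.70, 11.64 ± 0.04 and 11.22 ± 0.14 in that order. Htr5b, in contrast, was at 3.59 ± 0.08 in striatum, 8.38 ± 0.16 in hippocampus and 3.46 ± 0.09 in frontal cortex, and Prox1 likewise at 6.64 ± 0.14, 9.26 ± 0.25 and 6.26 ± 0.17. Wnt4, Htr1a and Mas1, an angiotensin peptide receptor, lay between in frontal cortex (6.61 ± 0.10, 5.98 ± 0.21 and 6.92 ± 0.27). Vip was higher in frontal cortex (10.02 ± 0.16) than in hippocampus (8.52 ± 0.36), with 4.72 ± 0.31 in striatum.

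**Figure D4:**
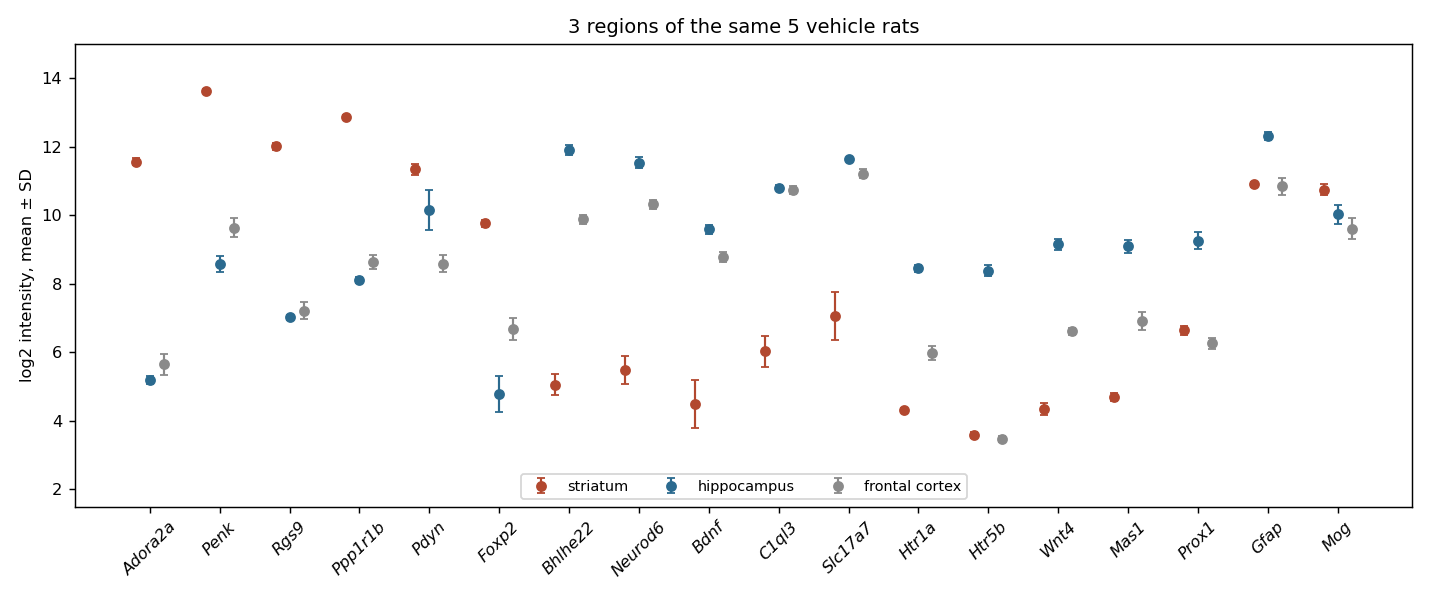
Log2 intensity (vertical axis) of 18 genes in striatum (red), hippocampus (blue) and frontal cortex (gray) of the same 5 vehicle rats, as mean and SD. Frontal cortex lies with hippocampus for C1ql3 (10.73 and 10.81) and with striatum for Htr5b (3.46 and 3.59).

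Rats on either drug, which share no array with the vehicle rats, gave the same comparison anew. Among haloperidol rats 846 and among risperidone rats 838 of the 849 genes called at 2-fold in vehicle rats were called in the same direction at 1.2-fold, and all 849 had the same sign in both. Over all genes, 41.6% were called in haloperidol rats and 41.5% in risperidone rats. Adora2a differed by 6.17 in haloperidol rats, 5.86 in risperidone rats and 6.36 in vehicle rats, and Bhlhe22 by -6.26, -5.34 and -6.81. Many differences lay closer to 0 in the drug-treated rats: of the 389 genes higher in striatum, 332 did so in haloperidol and 343 in risperidone rats, and of the 460 lower genes 386 and 405 did. The median of the lower genes was -1.35 in haloperidol, -1.33 in risperidone and -1.55 in vehicle rats. These genes were selected by the size of their difference in the vehicle rats, so this is a description with no test. Slc17a7 differed by -2.88 (SE 0.37) in haloperidol rats, -3.12 (SE 0.60) in risperidone rats and -4.56 (SE 0.22) in vehicle rats.

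The test of the difference itself, the interaction of region and treatment in limma, called no probe set for haloperidol, with 1297 of 18625 at an unadjusted p under 0.05 (6.96%), and 2 (0.0107%) for risperidone, with 3181 at an unadjusted p under 0.05 (17.1%). The count for risperidone depended on the processing, with 193 on the deposited scale, 183 with arrays centered on their median and 85 with a filter at the 60th percentile. Slc17a7 did not pass it (adjusted p = 0.702 for haloperidol and 0.318 for risperidone), nor did Drd1 (0.837 and 0.142) or Tac1 (0.741 and 0.0590 by the same limma test).

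**Figure D5:**
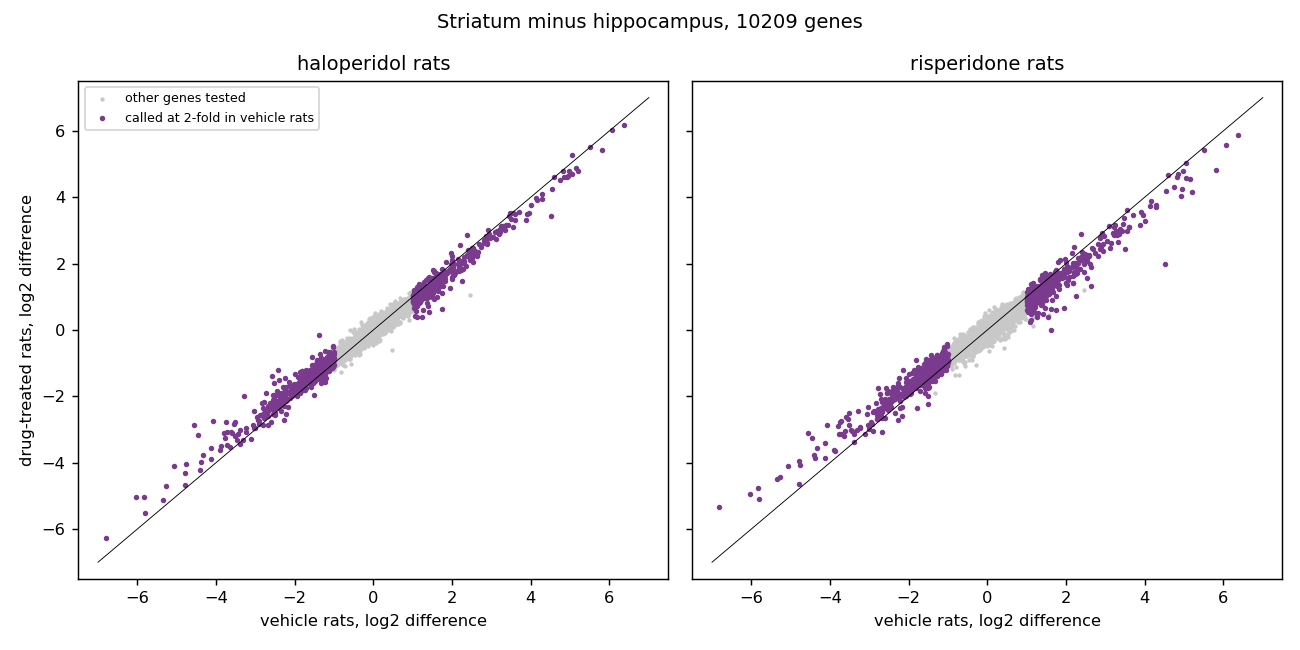
Log2 difference, striatum minus hippocampus, of each gene tested in drug-treated rats (vertical axis, haloperidol left and risperidone right) against the same difference in vehicle rats (horizontal axis). Purple points are the 849 genes called at 2-fold in vehicle rats, gray points the others, and the line marks equal differences. All purple points have the same sign on both axes, and many lie closer to 0 in the drug-treated rats.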

How the data were processed

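The authors normalized the arrays by RMA in R 2.7.2 and deposited linear intensity values for 31099 probe sets of an Affymetrix rat array. The sources used here do not give whether the regions were processed together, and the tissue label names mouse, although the organism is rat. Here, intensities of the 10 arrays were put on the log2 scale and quantile-normalized together. After 57 control probe sets were left out, 18625 of 31042 reached a mean of the 40th percentile and entered limma 3.58.1 under R 4.3.3, with the rat as a fixed block, 7.7 degrees of freedom and Benjamini-Hochberg adjustment over all tested. Of these, 14075 carry 1 gene, 308 several and 4242 none. Genes (10209) were represented by the probe set with the highest mean over all 45 arrays, with symbols from the platform annotation updated through gene identifiers. Arrays have no read depth, and precision follows from the standard error over 5 rats.

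The pairing comes from the animal numbers in the labels. Deviations from the region means correlated at 0.183 to 0.466 within a rat, in each rat more than with any other rat.

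Members and lists were chosen with earlier results of these data known. Genes were named by rule: the 15 largest positive and 15 largest negative differences called at 2-fold, the defining genes of the lists, and the 3 called members of each list with the largest differences, 159 in all. Other list members were named after their values were seen. The fit was first tested on simulated data. Alternatives covered the scale, the filter, the block, the samples in the fit, the choice of probe set and leaving out rats.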

Additional observations from a re-analysis of the deposited data

Results flagged for a closer look

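In 10 of the 159 named genes, 1 rat's difference stood apart from those of the other 4 rats (its gap to the nearest was over 0.71 of the range), where chance gives about 1 in 20. Rat 1 had the smaller difference for Drd1 (4.93, against 5.91 to 6.09 in the others), Meis1 (2.98, against 3.68 to 3.86) and Nrp1 (-2.54, against -3.26 to -3.07), and the larger one for Tubb3 (-0.70, against -0.33 to -0.25). In rat 3 the difference was 1.87 for Htr2a (0.22 to 0.51 in the others), -1.12 for Ntng1 (-2.02 to -1.87) and -6.35 for Neurod1 (-5.74 to -5.54). Rat 2 had -2.17 for Fezf2 (-2.94 to -2.78) and -1.50 for Hsd11b1 (-1.22 to -1.15), and rat 5 had 0.43 for Grm5 (0.61 to 0.64).

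For 2 probe sets the region difference of risperidone rats differed from that of vehicle rats by the interaction test in limma, and both genes were named after their values were seen. A probe set of Gabrb2, a GABA-A receptor subunit, had a difference of -0.61 (SE 0.07) in risperidone rats and 0.04 (SE 0.04) in vehicle rats, which is -0.66 between them (adjusted p = 0.00206). Wdr33, a protein of mRNA 3' end processing, had 0.04 (SE 0.09) in risperidone rats and 0.98 (SE 0.06) in vehicle rats, which is -0.92 between them in the joint fit (adjusted p = 0.0336).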

How the results depend on the processing

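None of the 1655 probe sets called at 2-fold changed sign under any alternative that kept them in the fit, and the scale of the arrays moved the counts most. On the deposited scale, 1713 probe sets were higher and 10014 lower at 1.2-fold (475 and 1536 at 2-fold), and 861 genes were higher and 5496 lower (249 and 784 at 2-fold), so that 14.6% of the called probe sets were higher, against 50.6% in the main analysis and 44.5% with arrays centered on their median. The same scale gave 725 genes higher and 5867 lower in haloperidol rats (2229 and 2013 in the main analysis) and 631 and 6151 in risperidone rats (2227 and 2013). It turned Pdgfra to -0.31, Cox4i1 to -0.28, Ndufs3 to -0.07, Rpl24 and Rpl27 to -0.03, Rpl6 and C1qc to -0.02, and Trem2 and Olig1 to -0.01. A filter at the 60th percentile, which tests fewer probe sets, left 2851 higher and 2796 lower (473 and 556 at 2-fold, 257 genes higher). The interaction with risperidone, 2 probe sets in the main analysis, gave 193 on the deposited scale, 183 with median-centered arrays and 85 with that filter. The cause was not tested.

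Leaving out each rat in turn gave 4352 to 4464 probe sets higher and 4260 to 4320 lower (741 to 775 and 893 to 908 at 2-fold), and 2357 to 2380 genes higher and 2145 to 2174 lower (384 to 391 and 457 to 464 at 2-fold). It gave 2158 to 2237 and 1958 to 2052 genes in haloperidol rats and 1955 to 2313 and 1816 to 2181 in risperidone rats. Without the replicate block for the rat, 4307 probe sets were higher and 4243 lower, against 4407 and 4301 with it, and the calls of Prkcd and Rorb were lost (adjusted p = 0.0546 and 0.0598), that of Rorb also without rat 2 or 5. The rat as a random block gave 4381 and 4282. Averaging all probe sets of a gene moved the median of the CA2 and CA3 list from -2.41 to -1.79. The fit without rats 2 and 4 was chosen after the data had been seen. Dim genes are limited most: no detection calls were used, and members under the filter were not tested.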

Other observations

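Other lists describe tissue that borders the dissected regions or cells of other origin. Of 6 tested genes of the thalamus list, 4 were higher in striatum and 2 lower: Synpo2, an actin-binding protein, read 8.49, 8.16, 8.58, 8.79 and 8.77 in striatum and 4.50, 4.63, 4.59, 4.65 and 5.07 in hippocampus (3.87, SE 0.09, adjusted p = 2.10e-08 by limma), while Slc17a6 (-2.68) and Ntng1 (-1.79), which thalamic neurons are known to express, were lower. Of 7 genes of neocortical layers, 4 were higher and 3 lower, at a median of 0.29. With no filter on low values, 4 of 9 were called higher and 5 lower, at a median of -0.39. The call of Rorb, 1 of the higher genes (0.29), was lost on the deposited scale (0.01, adjusted p = 0.898 by limma). Lamp5, which marks upper layers and interneurons, was higher by 1.94 (SE 0.06, adjusted p = 1.18e-07 by limma), and Fezf2, a factor of deep-layer projection neurons, had a difference of -2.71 (SE 0.11, adjusted p = 2.67e-07 by limma). Foxp2 and Prkcd stand on these lists and on striatal ones, and Slc17a6 stands on the list of telencephalic glutamatergic neurons too.

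Of 4 tested genes of neuroblasts, Dcx, a microtubule protein of migrating neurons, was lower (-0.83, SE 0.10, adjusted p = 1.46e-04 by limma), with 6.33, 6.68, 5.82, 5.73 and 6.35 in striatum and 7.09, 7.21, 6.65, 7.02 and 7.07 in hippocampus, and Tubb3 was lower (-0.37). With no filter on low values, 4 of 10 members of this list were called higher and 4 lower, at a median of -0.05. Meningeal genes varied by array: their mean level was 9.12 in striatum of rat 1 and 6.51 to 7.73 in the other striata, against 6.90 to 7.54 in hippocampus. Of 6 tested genes only Dcn (-1.51) was called, and Dcn is counted on the CA1 list as well. Of a list of 12 inflammatory genes, 3 were tested: Ifitm3, an antiviral protein, was higher by 0.74 (SE 0.07, adjusted p = 4.21e-05 by limma), Bag3, a co-chaperone, was lower (-0.75, SE 0.06, adjusted p = 1.46e-05 by limma), and Stat3 (0.15) was not called.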
